A study of Mus musculus with 24 samples.

Results

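Alveolar epithelial type II cells (AEC2s) make pulmonary surfactant, a film of lipid and protein that lowers surface tension in the alveolus and whose main lipid is phosphatidylcholine. The fatty acids for it are built from acetyl-CoA by acetyl-CoA carboxylase and fatty acid synthase, lengthened and desaturated, joined to coenzyme A, and placed on a glycerol backbone that receives choline through the CDP-choline pathway. SREBP-1 and ChREBP are transcription factors known to drive the genes of this route, and lipid that is not exported can be stored in droplets coated by perilipins. The genes described here are 39 genes of this route, grouped by their known roles: 3 regulators, 6 enzymes of precursor supply and chain synthesis, 4 elongases, 4 desaturases, 4 acyl-CoA synthetases, 6 enzymes of glycerolipid synthesis, 6 of phosphatidylcholine synthesis, 2 of fatty acid uptake and binding, 3 of lipid droplets and lipolysis, and Acoxl. These 39 genes were chosen with earlier results of these data known, so counts of them describe the list and do not test the route. They are 39 of the 55421 mouse genes in the count table, and all 39 were among the 18046 genes expressed highly enough to be tested. All 39 would also have been tested on the cultured libraries alone, so none entered only through its level in fresh cells.

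RNA-Seq counts were available for AECs from Krt8+/+ (WT) and Krt8-/- (KO) mice. Cells were fresh on day 0 (D0) and in 2D culture on D1, D3, and D7. The study reports that cultured AEC2s reach a transitional state on D1 and that many remain in it on D7, beside some AEC1s. Each of the 8 groups held 3 libraries, 1 for each of 3 dates in the labels, which gave 24 libraries of 10184439 to 19483386 counts. The libraries of a date, of both genotypes and all days, are called an isolation here. The labels do not say what the date marks, and cells of the 2 genotypes came from different mice. The KO mice lack keratin 8, a cytoskeletal protein of transitional cells, in all tissues. The ages, sexes, and number of mice in each isolation were not given in the sources used here, and the mice received no other stated treatment. Levels are CPM, the count of a gene as parts of its library's total after scaling for composition (counts per 1000000), and changes are log2 ratios with standard errors (SE) from 1 model of all 24 libraries. A change was called when its Benjamini-Hochberg adjusted p over all genes tested was under 0.05.

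The libraries followed their labels in most respects. Krt8 averaged 523 CPM in WT D0 cells and 4030 CPM in WT D7 cells, against 29.6 and 30.2 CPM in KO cells. All 10 AEC2 markers examined were above 1 CPM on D0, and their summed level fell from 266000 to 349000 CPM in the WT D0 libraries to between 305 and 3230 CPM on D7. Most of the WT D7 sum was Lyz2, at a mean of 1290 CPM, and Sftpc was then 0.00332% to 0.0071% of counts. In isolation 1, Xist was at 62.4 to 79.5 CPM in the WT libraries and 5.92 to 12.0 CPM in the KO libraries, and the Y-linked gene Ddx3y was at 0 to 0.441 CPM in WT and 58.1 to 85.0 CPM in KO, so the mice of the 2 genotypes in this isolation differed in sex, at least in part. In isolations 2 and 3 the genotypes matched in these genes, but the isolations differed. Isolation 2 had Xist at 42.7 to 154 CPM and Ddx3y at no more than 0.181 CPM. Isolation 3 had Xist at no more than 2.24 CPM and Ddx3y at 63.6 to 92.8 CPM. In WT, isolation 3 thus differed in sex from isolations 1 and 2, which both had Xist and little Ddx3y. In KO, isolation 2 differed from isolations 1 and 3, though isolation 1 also had some Xist. Differences between isolations that differ in these genes cannot be told apart from differences in sex. Markers of other cells were present. Macrophage markers summed to between 13.3 and 494 CPM in the WT libraries, fibroblast markers to between 154 and 1930 CPM, and club and ciliated markers, led by Scgb1a1, to between 5840 and 12000 CPM on WT D0 and between 25.7 and 36.3 CPM on WT D7. Endothelial markers did not sum to more than 35.0 CPM or adipocyte markers to more than 4.84 CPM in any library, and 4 of 7 adipocyte markers had no count in the WT D0 libraries. In bulk RNA, fewer cells of a type and less RNA per cell cannot be told apart.

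The sequences before the start sites of 5 members are shown because these genes moved far and in opposite directions, beside the letters known to bind lipid regulators. Fasn (minus strand, chr11:120824548-120824797), Elovl5 (plus strand, chr9:77917115-77917364), and Gpam (minus strand, chr19:55127239-55127488) fell in culture, and Plin2 (minus strand, chr4:86670060-86670309) and Elovl6 (plus strand, chr3:129532136-129532385) rose. Each is the 250 bases upstream of a start site in RefSeq, build GRCm38.p6, written 5′ to 3′ on the strand of the gene. Capitals mark the CCAAT box (CCAAT, or ATTGG on the other strand), bound by NF-Y, the E-box CACGTG, bound by ChREBP among others, and the sterol response element TCACNCCAC, which none of these 5 windows holds. Its shorter form CACCCCAC, left in lower case, is in the Gpam window.
Fasn: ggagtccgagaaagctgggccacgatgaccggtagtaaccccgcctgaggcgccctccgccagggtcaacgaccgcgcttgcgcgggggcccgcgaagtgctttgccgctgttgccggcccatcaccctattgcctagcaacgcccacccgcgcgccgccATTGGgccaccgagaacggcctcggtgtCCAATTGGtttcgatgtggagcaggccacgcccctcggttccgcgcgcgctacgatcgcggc
Elovl5: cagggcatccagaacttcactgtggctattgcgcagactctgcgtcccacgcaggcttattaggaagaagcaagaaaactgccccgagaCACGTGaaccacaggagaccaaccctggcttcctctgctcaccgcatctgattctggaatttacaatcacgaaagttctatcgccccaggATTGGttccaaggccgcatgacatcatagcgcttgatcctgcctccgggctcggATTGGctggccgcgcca
Gpam: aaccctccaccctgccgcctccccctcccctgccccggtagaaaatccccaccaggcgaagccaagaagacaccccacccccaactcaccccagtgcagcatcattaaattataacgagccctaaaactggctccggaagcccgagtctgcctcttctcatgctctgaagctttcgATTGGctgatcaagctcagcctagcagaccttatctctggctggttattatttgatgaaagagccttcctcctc
Plin2: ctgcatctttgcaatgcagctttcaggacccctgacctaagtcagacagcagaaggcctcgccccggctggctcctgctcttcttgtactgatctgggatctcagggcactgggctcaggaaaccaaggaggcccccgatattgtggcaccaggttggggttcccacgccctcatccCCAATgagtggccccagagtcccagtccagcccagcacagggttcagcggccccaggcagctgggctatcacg
Elovl6: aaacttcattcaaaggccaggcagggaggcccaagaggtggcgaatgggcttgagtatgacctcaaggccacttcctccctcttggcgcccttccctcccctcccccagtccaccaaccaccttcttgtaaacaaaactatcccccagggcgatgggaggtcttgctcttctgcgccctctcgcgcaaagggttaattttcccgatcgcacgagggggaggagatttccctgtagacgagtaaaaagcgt

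A window was given for 33 of the 39 members, with 49 windows in all, some of 1 gene and some overlapping. Scd1, Scd2, Fads1, Dgat1, Dgat2, and Fabp5 had none. The CCAAT box was in 46.9% of the members' windows, against 33.8% of all 32817 windows of this length and 34.6% of the 14890 windows of genes tested. In the Fasn window it occurs 3 times, and the last occurrences overlap in the run CCAATTGG, which reads as CCAAT on each strand. The sterol response element was in 8.16% of the members' windows, those of Acsl1, Mlxipl, and Pcyt1a, against 1.05% of all windows and 0.967% of those of tested genes, with the overlapping windows of Pcyt1a sharing 1 match. The shorter form CACCCCAC, which overlaps TCACNCCAC where the open letter is C, was in 10.2% of the members' windows, those of Acsl1, Elovl7, Gpam, and Pcyt1a, against 2.58% of all windows and 2.82% of the windows of tested genes. CACGTG was in 3 of 49 windows (6.12%), against 6.02% of all windows and 7.87% of those of tested genes. The GC box GGGCGG was in 53.1%, against 32.7% and 54.7%, and the hypoxia element ACGTGC in 12.2%, against 4.92% and 6.4%. Both strands were searched for each. A match to these letters is a description of the sequence and was not tested for binding, and the windows of genes that rose and fell both held CCAAT.

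Most of the listed members fell within the first day. In WT cells 28 of 39 members were lower and 4 higher on D1 than on D0, 31 were lower and 5 higher on D3, and 31 were lower and 4 higher on D7. Over all genes tested 54.7% were called on D1, 28.5% as lower and 26.2% as higher, 54.0% were called on D3, 27.8% as lower and 26.1% as higher, and 58.8% were called on D7, with 28.6% higher and 30.2% lower. The members' median log2 change was -2.01 on D1, -2.36 on D3, and -2.59 on D7, while the median over all genes tested was 0 on D1 and D7 and -0.0015 on D3. These 3 comparisons share the D0 libraries. The members' levels summed to 29007 ± 1788 CPM on D0, 5987 ± 2248 CPM on D1, 3709 ± 308 CPM on D3, and 3409 ± 111 CPM on D7 (SD, n = 3). When libraries were scaled by their total counts alone, the median of all genes moved by 0.46, 0.60, and 0.45 on the 3 days, and the members' medians were then -1.57, -1.76, and -2.14. Surfactant genes take a large share of D0 counts (Sftpc alone took 11.9% to 16% in WT), and this was measured, but its part in the shift was not tested.

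**Figure D1:**
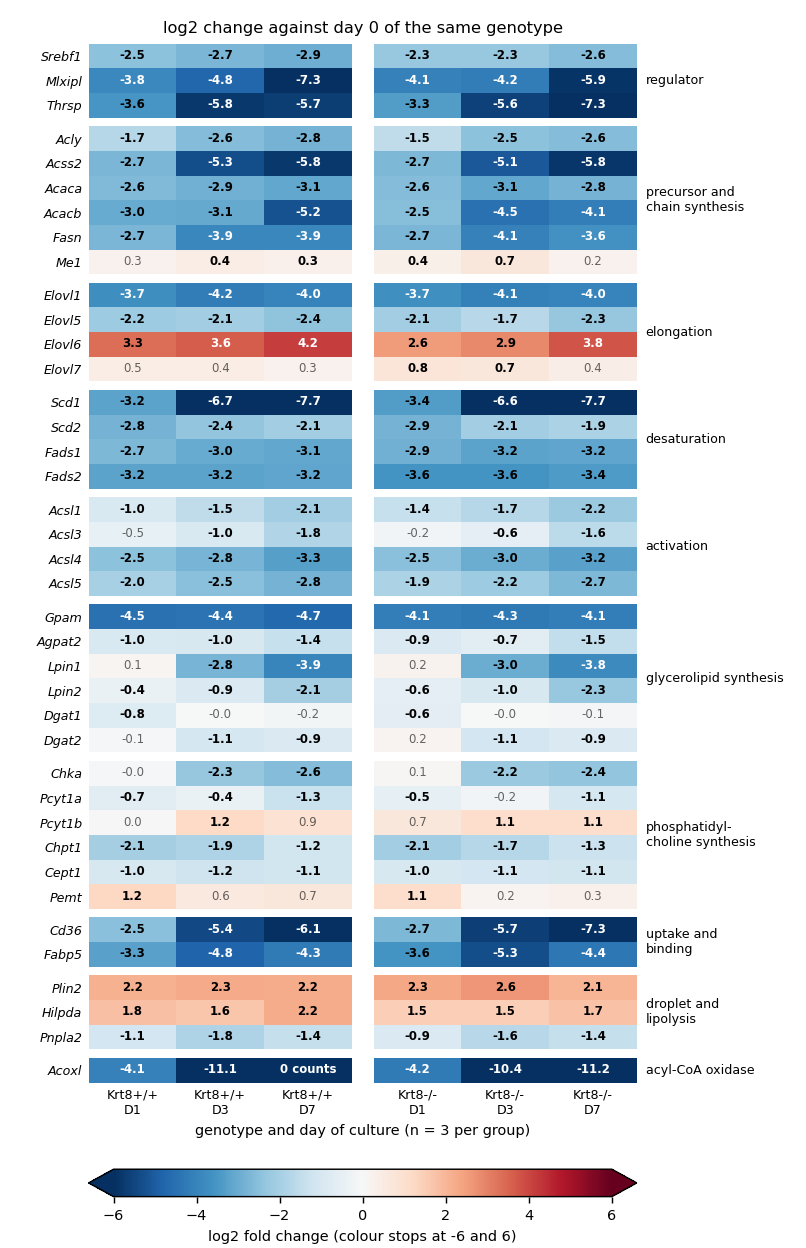
Each cell gives the log2 change of a member on D1, D3, or D7 against D0 of the same genotype (n = 3 libraries per group), with members grouped by role. Bold numbers passed the test at an adjusted p under 0.05, blue is lower and red higher, the colour stops at -6 and 6, and "0 counts" marks a gene with no count on that day. Blue cells fill most roles in both genotypes, and Elovl6, Plin2, and Hilpda are the members that were red and bold on every day.

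All 3 regulators fell on D1, against 28.5% of all genes. Srebf1, which encodes SREBP-1, was at 451, 407, and 396 CPM in isolations 1 to 3 on D0, at 118, 42.6, and 64.6 CPM on D1, and at 52.9, 48.0, and 62.3 CPM on D7. Every cultured library was below every D0 library, and the fall was -2.48 (SE 0.25, adjusted p = 7.6e-08) on D1 and -2.94 (SE 0.25) on D7. Mlxipl, which encodes ChREBP, went from a mean of 12.9 CPM on D0 to 0.873 CPM on D1 and had 3 counts in all 3 D7 libraries together, against 457 on D0, a ratio of 0.00533 (exact binomial 95% interval 0.0011 to 0.0157, counting error only). Thrsp, a small protein tied to lipogenesis whose gene responds to thyroid hormone, fell from 16.5 CPM to 1.38 CPM on D1 and 0.295 CPM on D3.

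In precursor supply and chain synthesis 5 of 6 members fell on D1, all but Me1, against 28.5% of all genes. Fasn, fatty acid synthase, was at 2788, 1991, and 1724 CPM in the 3 isolations on D0, at 548, 153, and 278 CPM on D1, at 158, 169, and 111 CPM on D3, and at 122, 141, and 167 CPM on D7. All cultured libraries were lower than all D0 libraries, with changes of -2.73 (SE 0.39, adjusted p = 7.6e-06) on D1 and -3.92 (SE 0.41) on D7. Acaca, the carboxylase that makes malonyl-CoA, fell by 2.64 on the log2 scale on D1 and by 3.13 on D7. Its relative Acacb, known as the mitochondrial form, went from 16.3 CPM on D0 to 1.95 CPM on D1 and 0.417 CPM on D7. The suppliers of acetyl-CoA fell by unequal amounts. Acly, which cuts citrate, went from 1624 ± 180 CPM on D0 to 502 ± 231 CPM on D1 and 228 ± 17.7 CPM on D7 (SD, n = 3), a change of -2.83 (SE 0.30). Acss2, which activates acetate, fell further, from 222, 208, and 220 CPM on D0 to 4.90, 3.73, and 2.92 CPM on D7 (-5.81, SE 0.31, adjusted p = 1.2e-11). Me1, malic enzyme, a source of NADPH, was at 273 CPM on D0 and 326 CPM on D1 (0.26, adjusted p = 0.092, called as 0.73 with total-count scaling), and rose to 370 CPM on D3 (0.44, SE 0.13, adjusted p = 0.0062), a call lost without isolation 2 (0.41, adjusted p = 0.0582). Its D7 call (0.33, adjusted p = 0.032) was lost when any 1 isolation was left out. Me1 has a near-identical pseudogene copy, Gm7049, with 98.5% identity over 1638 bases and 18.8% as many counts, so the split of reads between them is uncertain.

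**Figure D2:**
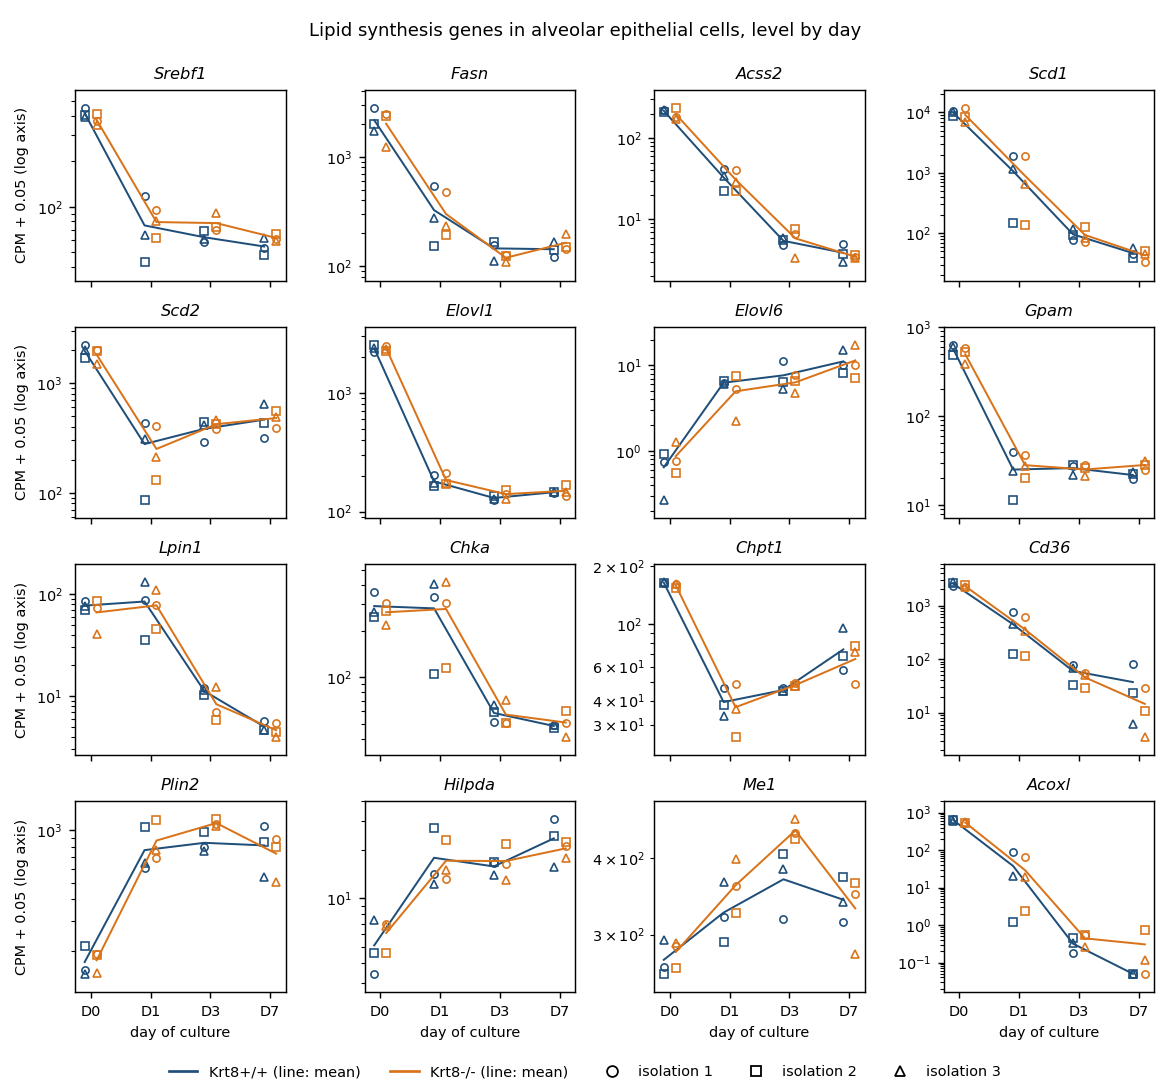
Levels in CPM plus 0.05, on a log axis, of 16 members by day of culture, with WT in blue and KO in orange, a symbol for each isolation, and lines through the group means (n = 3). Scd1, Cd36, and Acoxl spread over more than a factor of 5 between isolations on D1, isolation 2 (squares) is the lowest D1 library of each genotype for Fasn, Scd1, Scd2, Cd36, Chka, and Acoxl, and the genotypes lie close together.

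All 4 desaturases fell on D1, against 28.5% of all genes. Scd1, stearoyl-CoA desaturase, was the member with the highest level per exonic length on D0, at 2008 CPM per kb, above 99.9% of the genes tested. It was at 10544, 8616, and 10315 CPM in the 3 isolations on D0, at 1893, 150, and 1145 CPM on D1, at 76.3, 94.7, and 116 CPM on D3, and at 45.4, 39.1, and 56.1 CPM on D7. The groups did not overlap at any step, and the change was -3.21 (SE 0.71, adjusted p = 0.00074) on D1, -6.68 (SE 0.83) on D3, and -7.71 (SE 0.87) on D7. Scd2, a desaturase of the same reaction, took another course, from 1960 ± 267 CPM on D0 to 278 ± 177 CPM on D1 and 463 ± 165 CPM on D7 (SD, n = 3). Its change against D0 was -2.82 on D1 and -2.08 on D7, its D3 level did not differ from D1 by the test (0.46, adjusted p = 0.43), and on D7 it was above Scd1 per exonic length, at 84.8 against 9.58 CPM per kb. Scd1 and Scd2 have 95.5% identity over 623 aligned bases, so that reads could be shared between them. Fads1 and Fads2, the desaturases of polyunsaturated fatty acids, fell from 519 and 235 CPM on D0 to 79.9 and 25.0 CPM on D1 and were at 58.8 and 25.9 CPM on D7, changes of -3.14 and -3.18.

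Of the 4 elongases, 2 fell and 1 rose on D1, where 28.5% of all genes were lower and 26.2% higher. Elovl1, an elongase of very long saturated chains, fell from 2209, 2523, and 2398 CPM on D0 to 202, 164, and 173 CPM on D1, a change of -3.73 (SE 0.13, adjusted p = 4.6e-14). Elovl5, which lengthens polyunsaturated chains, fell from 522 CPM to 115 CPM on D1 and was at 98.4 CPM on D7. Elovl6, which lengthens palmitate to stearate, moved the other way. It was at 0.699, 0.867, and 0.221 CPM on D0, at 6.10, 6.52, and 6.04 CPM on D1, and at 10.01, 8.13, and 15.05 CPM on D7, with no overlap between D0 and any later day (3.34, SE 0.52, adjusted p = 2.1e-05 on D1 and 4.17, SE 0.53 on D7). Its D7 level per exonic length was still low, 1.72 CPM per kb against 53.3 CPM per kb for Elovl1. Elovl7 had means of 52.5, 72.3, 70.4, and 63.2 CPM over the 4 days in WT and did not pass the test on any of them, although with total-count scaling it was called higher on all 3 cultured days (0.94, 1.02, and 0.72).

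The 4 long-chain acyl-CoA synthetases, which activate fatty acids, were all lower on D3 and D7, against 27.8% and 30.2% of all genes. Acsl4 went from 814 CPM on D0 to 146 CPM on D1 and 82.6 CPM on D7, and Acsl5 from 872 CPM to 216 and 124 CPM. Acsl1 and Acsl3 were slower. Acsl1 was at 45.4, 23.0, 15.7, and 10.8 CPM over the 4 days, a change of -0.98 on D1 that was lost without isolation 2, and Acsl3 at 88.8, 63.4, 45.4, and 25.1 CPM, a change of -0.49 (adjusted p = 0.069) on D1, -0.97 on D3, and -1.82 on D7. With the isolation as a block, the D1 change of Acsl3 passed the test (adjusted p = 0.0426), and with total-count scaling its D3 change did not (-0.36).

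In glycerolipid synthesis 4 of 6 members were lower on D1, against 28.5% of all genes. Gpam, the mitochondrial glycerol-3-phosphate acyltransferase, was at 622, 482, and 588 CPM on D0, at 39.8, 11.5, and 23.9 CPM on D1, and at 19.8, 22.1, and 23.4 CPM on D7. The change of -4.49 (SE 0.32, adjusted p = 1.1e-09) on D1 was 95.6% of that on D7. Agpat2, the next acyltransferase, fell from 94.8 CPM to 48.2 CPM on D1 (-0.98, SE 0.20), a call lost on D1 and D3 with total-count scaling (-0.48 and -0.40). Lpin1, a phosphatidate phosphatase, did not fall on D1. It was at 85.8, 69.4, and 75.6 CPM on D0, at 87.7, 35.5, and 130 CPM on D1, at 12.0, 10.1, and 11.4 CPM on D3, and at 5.65, 4.64, and 4.64 CPM on D7. D0 and D1 overlapped, and all D3 libraries were below all D1 libraries (-2.92, SE 0.39, adjusted p = 2.1e-05). Its relative Lpin2 was lower by 0.39 (adjusted p = 0.0495) on D1 under the main scaling, a call lost without any 1 isolation and with the isolation as a block (adjusted p = 0.0575) and turned to 0.08 when libraries were scaled by total counts, and Lpin2 fell by 2.06 on the log2 scale on D7. Dgat1 and Dgat2 make triglyceride. Dgat1 was lower on D1 only (25.6 to 14.4 CPM, -0.83, SE 0.16) and was back at 25.5 CPM on D3, a rise of 0.82 from D1 (adjusted p = 0.00057), while with total-count scaling it was called higher on D3 than on D0 (0.59). Dgat2 was at 12.3, 11.5, 5.84, and 6.51 CPM over the 4 days, with a change of -1.07 on D3 that was lost with total-count scaling, as was that on D7 (both -0.46).

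In phosphatidylcholine synthesis 3 of 6 members were lower on D1 and 4 of 6 on D3 and D7, where 28.5%, 27.8%, and 30.2% of all genes were lower. Chka, choline kinase, which starts the CDP-choline pathway, was at 359, 246, and 267 CPM on D0 and at 331, 105, and 406 CPM on D1, and the groups overlapped (-0.05, SE 0.38, adjusted p = 0.92). On D3 it was at 51.2, 59.1, and 65.6 CPM, below all D1 libraries (-2.26, SE 0.39, adjusted p = 0.00031). Pcyt1a, the enzyme that makes CDP-choline, was at 157, 98.0, 120, and 61.9 CPM over the 4 days, a fall of 0.68 on the log2 scale on D1 and of 1.34 on D7. Its D3 call of -0.38 (adjusted p = 0.021) was lost without isolation 1 or 3 and turned to 0.22 with total-count scaling, under which the D1 call was lost as well (-0.22). Chpt1, the cholinephosphotransferase that ends the pathway, was at 164, 164, and 164 CPM on D0, at 46.7, 37.8, and 33.3 CPM on D1, and at 57.6, 68.3, and 95.2 CPM on D7, and so lay between the D1 and the D0 levels on D7. It rose by 0.70 (SE 0.20, adjusted p = 0.038) from D3 to D7, a call lost without isolation 2 or 3. Cept1, which serves choline and ethanolamine, fell by 1.00 on the log2 scale on D1 and by 1.14 on D7, and 24.7% of its exonic bases overlap Dennd2d on the opposite strand, so that without a stated strand setting some of its counts may be those of Dennd2d. Pcyt1b was at 1.99, 2.06, 4.62, and 3.85 CPM and rose on D3 (1.18, SE 0.43, adjusted p = 0.026), a call lost without isolation 2 or 3. With the isolation as a block its D7 change was called too (0.98, adjusted p = 0.0435). Pemt, which methylates phosphatidylethanolamine, was at 1.90, 4.43, 2.86, and 3.01 CPM over the 4 days and rose on D1 (1.22, SE 0.30), and with total-count scaling it was also called on D3 and D7 (1.20 and 1.12).

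Cd36 and Fabp5, of uptake and binding, fell, while Plin2 and Hilpda rose. Cd36, a fatty acid transporter at the membrane, was at 2357, 2602, and 2717 CPM on D0, at 756, 124, and 457 CPM on D1, at 78.6, 33.3, and 68.3 CPM on D3, and at 82.3, 23.2, and 6.16 CPM on D7. The change on D1 was -2.52 (SE 0.78, adjusted p = 0.0098) and was no longer called without isolation 2 (-1.99, adjusted p = 0.102), while on D7 it was -6.10 (SE 0.92, adjusted p = 9.6e-06). Cd36 is also expressed by macrophages, and the summed macrophage markers of the D7 libraries, 279, 79.5, and 13.3 CPM in isolations 1 to 3, had the same order as Cd36. The macrophage sum had that order of isolations in WT on every day, while Cd36 had it on D7 only. The summed AEC2 markers of the WT D7 libraries, 3226, 1061, and 305 CPM, had that order too. Most of this AEC2 sum was Lyz2, at a mean of 1290 CPM against a mean sum of 1530 CPM. The sum thus says little about the other AEC2 markers, and which cells the Lyz2 counts came from was not tested. The part of macrophage RNA in the level of Cd36 was not tested. Fabp5, a fatty acid carrier protein, fell from 1352 CPM on D0 to 141 CPM on D1 and 48.8 CPM on D3. Plin2, which coats lipid droplets, was at 156, 215, and 148 CPM on D0, at 610, 1047, and 653 CPM on D1, at 804, 985, and 756 CPM on D3, and at 1067, 855, and 537 CPM on D7. No D0 library reached a cultured one (2.15, SE 0.27, adjusted p = 1.7e-06 on D1 and 2.24, SE 0.27 on D7). Hilpda, an inhibitor of the lipase that Pnpla2 encodes, rose from 5.08 CPM to 17.8 CPM on D1 (1.82, SE 0.34) and 23.5 CPM on D7 (2.23, SE 0.34), and Pnpla2, the triglyceride lipase ATGL, fell from 257 CPM to 121 CPM on D1 and 71.3 CPM on D3. The droplet coat and the lipase inhibitor rose on the day on which the lipase fell.

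Acoxl, a gene of the acyl-CoA oxidase family, had the largest change of the 39 on WT D7. It was at 656, 623, and 616 CPM on D0, at 90.6, 1.17, and 20.7 CPM on D1, and at 0.131, 0.389, and 0.284 CPM on D3, and no WT D7 library held a count of it. Against 21631 counts on D0, 0 counts on D7 put it at least 8874-fold lower, with a floor of 3 counts over the D7 group. Its D1 change of -4.07 (SE 0.97, adjusted p = 0.0017) had an adjusted p of 0.0502 without isolation 3.

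The order of the levels per exonic length changed accordingly. On WT D0 Scd1 (2008 CPM per kb), Elovl1 (872), Cd36 (713), Fabp5 (379), and Scd2 (359) held the highest levels. On WT D7 Plin2 was first at 233 ± 76.0 CPM per kb (SD, n = 3), above 99.0% of genes, followed by Me1 at 88.9 ± 7.55 and Scd2 at 84.8 ± 30.2, and the last 2 did not differ beyond their spread. Scd1, with 9.58 CPM per kb, was then in position 19 of the 39.

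**Figure D3:**
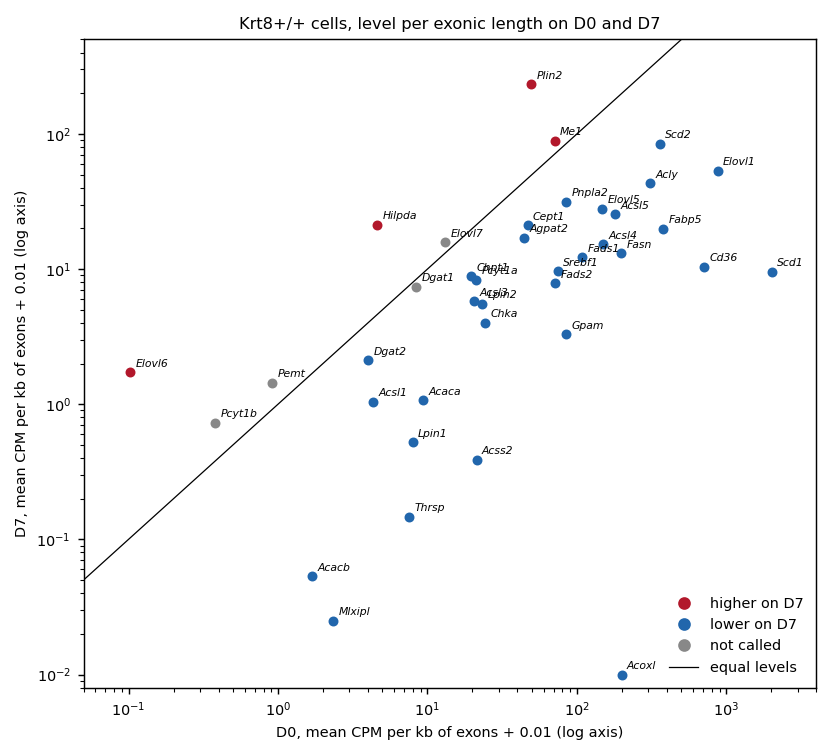
Mean level per kb of exons in WT cells on D0 (x axis) and D7 (y axis), both log axes with 0.01 added, 1 point for each of the 39 members (n = 3 libraries per day), coloured by the D7 against D0 call. Points below the line of equal levels had lower means on D7. Plin2, Me1, Hilpda, and Elovl6 are the 4 points called higher, and Acoxl sits at the bottom with no count on D7.

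The falls were not all of the same pace. In WT cells 30 members were lower by more than 1 on the log2 scale on D7, and the median share of that log2 fall already reached on D1 was 70.2%, a median that did not move when Acoxl was set at its bound. For 10 of them the share was over 80%, among them Gpam, Elovl1, Elovl5, Fads1, Fads2, and Srebf1, and for 9 it was under 50%, among them Lpin1, Chka, Lpin2, Acsl3, Cd36, Scd1, and Acss2. A low share is not always a small D1 change. On D1 Scd1 had changed by -3.21, Acss2 by -2.72, and Cd36 by -2.52, each more than Srebf1 (-2.48). Lpin1 (0.13) and Chka (-0.05) had hardly moved. From D1 to D3 14 members fell and Dgat1 rose, while 26.3% of all genes were called in that step, 11.9% as lower and 14.4% as higher. The count of 15 was 9 without isolation 1, 14 without isolation 2, and 6 without isolation 3. Fits with an isolation left out held fewer libraries, and the share of all genes called in them was not computed. Calls lost in these fits therefore cannot be told apart from a loss of calls over all genes. Lpin1, Chka, and Dgat2 were lower on D3 and not called on D1, and Scd1, Cd36, Acss2, and Acoxl fell in both steps, although the second call of Cd36 was lost without isolation 2 or 3. The D1 to D3 calls of Dgat2, Thrsp, Acly, Fasn, Elovl1, and Pnpla2 were lost without isolation 1 or 3. That of Fabp5 was lost without isolation 3, and that of Lpin2 without any 1 isolation. From D3 to D7 Acsl3, Lpin2, and Pcyt1a were lower and Chpt1 higher, where 6.58% of all genes were called, 3.47% as lower and 3.11% as higher. The count of 4 was 2 without isolation 2 and 2 without isolation 3, and the call of Acsl3 was lost without any 1 isolation.

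The D1 libraries differed by isolation in the same way in both genotypes. Isolation 2 held the lowest D1 level of 24 of the 39 members in WT and KO alike (61.5%), against 22.8% of all genes tested, and isolation 1 the highest level of 23 (59%, against 26% of all genes tested). Within isolations 1, 2, and 3 the members' median D1 change against D0 was -1.39, -2.60, and -2.04 in WT and -1.49, -2.42, and -1.90 in KO. The summed AEC2 markers had the same order, at 108690, 19661, and 87388 CPM in the WT D1 libraries and 102010, 18436, and 81006 CPM in the KO D1 libraries. Summed club and ciliated markers were highest in isolation 2, at 5034, 15836, and 7846 CPM in WT D1 and 8513, 11622, and 7569 CPM in KO D1. By D3 the within-isolation medians were -2.72, -1.95, and -2.28 in WT, so isolation 2 was not the furthest from D0 on that day. Chka and Lpin1 on D1 were lowest in isolation 2 and highest in isolation 3, and Plin2 ran the other way, highest in isolation 2 and lowest in isolation 1. By Xist and Ddx3y, isolations 1 and 2 matched in sex in WT and differed in KO, and isolation 3 differed from isolation 2 in both. What set the isolations apart was not tested.

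No change of a member with loss of Krt8 passed the test. No member differed between KO and WT on D0, D1, D3, or D7, over the cultured days together, or in its course over the days, where 0.0277%, 0.0166%, 0.0166%, 0.0166%, 0.0277%, and 0.00554% of all genes were called. In the main edgeR fit 1 member was under an unadjusted p of 0.05 on D1 and 2 on D3, and in DESeq2 Pcyt1b on D1, Acaca and Me1 on D3, and Thrsp on D7. Pcyt1b was at 4.66, 5.45, and 2.26 CPM in KO D1 cells and 3.45, 1.504, and 1.22 CPM in WT, higher in KO in 3 of 3 isolations with groups that overlapped (1.00, SE 0.43, edgeR unadjusted p = 0.031, adjusted p = 1). On D3 Me1 was at 440, 431, and 463 CPM in KO and 318, 407, and 384 CPM in WT (0.27, SE 0.13, edgeR unadjusted p = 0.048, adjusted p = 1), and Elovl5 was at 158, 156, and 152 CPM in KO and 110, 129, and 125 CPM in WT (0.35, SE 0.17, edgeR unadjusted p = 0.049, adjusted p = 1). Both were higher in every KO library than in any WT library of that day and did not hold after adjustment, and neither was under an unadjusted p of 0.05 with DESeq2 size factors, without the filter, with the replicate block, or without isolation 1 or 3. Acaca and Thrsp are given because of DESeq2, after their values were seen. Acaca was at 13.2, 18.7, and 14.9 CPM in KO D3 cells and 19.4, 26.1, and 20.1 CPM in WT, with an edgeR difference of -0.49 and a 95% interval of -0.996 to 0.026. Thrsp held 4 counts in the 3 KO D7 libraries and 13 in the WT ones.

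A missed threshold does not show that the genotypes are alike, so intervals from the main model are given. That model did not pair the libraries of an isolation, whose deviations correlated at 0.0573 to 0.548 between genotypes. Spread shared by the genotypes thus counts as error in these intervals, and paired intervals were not computed. Over D1 to D7 the 95% interval of the KO minus WT difference lay within 1 log2 unit on each side of 0 for 32 of 39 members and within 0.5 for 21. The estimates ran from -0.70 for Cd36 to 1.76 for Acoxl, and the latter rests on 0 counts in WT D7 libraries and 0.255 CPM in KO D7 libraries. Intervals crossed 1 log2 unit for Mlxipl, Thrsp, Acacb, Pcyt1b, Cd36, Fabp5, and Acoxl. In the course by day the smallest unadjusted edgeR p was 0.29, for Elovl5. On D0 the KO libraries held more club cell markers (14300 to 19600 CPM) than the WT libraries, and in isolation 1 the genotypes differed in sex, and the part of either in these differences was not tested.

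**Figure D4:**
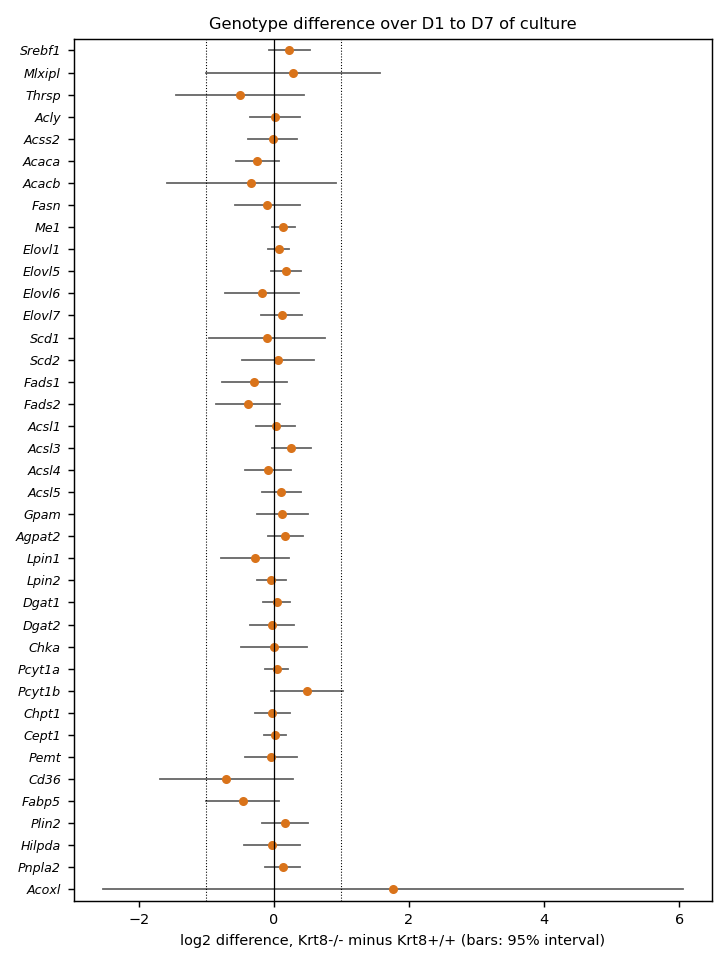
The difference between KO and WT over D1 to D7, as log2 of KO minus WT, for each of the 39 members, with bars for the 95% interval from the model and dotted lines at -1 and 1. Every interval includes 0, and the widest is that of Acoxl.

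The course in KO cells was close to that in WT. On D1, D3, and D7 of KO culture 28, 30, and 31 members were lower and 6, 6, and 4 higher than on D0, where 50.6%, 52.0%, and 58.5% of all genes were called. As lower, 26.9%, 26.6%, and 29.9% of all genes were called on the 3 days, and as higher 23.7%, 25.4%, and 28.6%. The call was the same in both genotypes for 37 of 39 members on each of the 3 days, and no member was called in opposite directions. Me1 and Elovl7 on D1, Elovl7 on D3, and Pcyt1b on D7 were called in KO and not in WT, and Pcyt1a on D3 and Me1 on D7 in WT and not in KO, but none of these differences between genotypes passed its own test. The KO calls were lost for Me1 without isolation 1 or 3 or without the filter, for Elovl7 on D1 without isolation 1 and on D3 without isolation 1 or 2, and for Pcyt1b without isolation 2 or 3. In WT, Me1 was called on D1 by DESeq2 (adjusted p = 0.0224) and in edgeR with DESeq2 size factors (adjusted p = 0.0389). Scd1 was at 11738, 8475, and 6930 CPM in KO D0 cells, at 1877, 137, and 648 CPM on D1, and at 32.8, 50.9, and 45.6 CPM on D7. Plin2 went from 177 CPM on D0 to 874, 1104, and 735 CPM on D1, D3, and D7. Acoxl went from 542 CPM to 28.9 CPM on D1 and 0.391 CPM on D3. From D1 to D3 15 KO members were called (23.6% of all genes), 14 of them lower (10.2% of all genes) and 1 higher (13.4%). The count was 6 without isolation 1, 12 without isolation 2, and 5 without isolation 3, again with fewer libraries and no share over all genes computed. From D3 to D7 6 were called (10.5% of all genes), all lower (6.15% of all genes, with 4.40% higher), and the count was 3 without isolation 1 and 3 without isolation 3.

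Other genes of lipid metabolism moved both ways. Of 100 further genes in 4 lists, 92 were tested, and in WT 18 were higher and 50 lower on D1, 24 and 48 on D3, and 26 and 47 on D7. Of the 92, 73.9%, 78.3%, and 79.3% were called on the 3 days, against 54.7%, 54.0%, and 58.8% of all genes. On D7, when 28.6% of all genes were higher and 30.2% lower, fatty acid synthesis had 7 higher and 14 lower of 25, regulators 2 and 9 of 13, and uptake, droplets, and lipolysis 3 and 15 of 23. Glycerolipid and phospholipid synthesis had 14 higher and 9 lower of 31, the latter close to the share over all genes. The 5 largest falls on D7 were those of Acss3 (44.9 to 0.105 CPM) and Acss1 (266 to 1.05 CPM), which activate short-chain acids in mitochondria, Slc27a2 (9.59 to 0.0553 CPM), a fatty acid transporter, Elovl2 (36 counts to 0, a call lost without isolation 1), and the desaturase Scd3 (10.4 to 0.0884 CPM). The 5 largest rises were those of Elovl4, which builds very long chains and went from 0 to 409 counts (at least 110.8-fold higher), Fabp7, a carrier protein (0 to 242 counts, at least 65.5-fold higher), the acyltransferase Mogat2 (0.131 to 11.3 CPM), the acyl-CoA synthetase Acsbg1 (0.227 to 22.5 CPM), and the lysophospholipid acyltransferase Mboat2 (0.166 to 10.5 CPM). In both genotypes, then, the elongases Elovl4 and Elovl6 were higher on D7 while Elovl1 and Elovl5 were lower. None of the 92 genes differed between genotypes on any day in edgeR, where 2 to 3 a day were under an unadjusted p of 0.05.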

How the data were processed

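RNA-Seq counts of 24 libraries from 8 groups of genotype and day were analysed. The authors deposited 1 table of raw counts per gene, in whole numbers. The submitters' processing notes name cutadapt 2.3, STAR 2.7.8a, RSEM 1.3.3, and build GRCm38, without role or order, so the counts may be rounded RSEM estimates. The annotation and strand setting were not given in the sources used here. Libraries held 10184439 to 19483386 counts, and 5 reporter entries were left out. Gene symbols, exonic lengths, and overlaps came from GENCODE annotation of GRCm38, and near-identical copies from blastn 2.17.0. CPM used TMM factors.

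edgeR 4.0.16 in R 4.3.3 fitted quasi-likelihood models over the 8 groups (16 residual degrees of freedom) to the 18046 genes kept by filterByExpr (minimum count 10, minimum total 15), with Benjamini-Hochberg adjustment and a threshold of 0.05, after a test on simulated data. Over D1 to D7 the days were weighted 0.167, 0.5, and 0.333. Every member was named by rule, and genotype differences were named under an unadjusted p of 0.05 in edgeR. Of the other lipid genes, the 5 largest rises and falls on D7 in WT were named. The members and lists were chosen with earlier results of these data known. Alternatives were DESeq2 1.42.0, its size factors, total-count scaling, no filter, a replicate block, and each isolation left out. Libraries of an isolation share a date in the labels, which pairs them. The deviations of libraries of an isolation from their group means correlated at -0.0345 to 0.383 between days and at 0.0573 to 0.548 between genotypes. With no statement on the mice of an isolation, p-values measure the spread between isolations, which is also their only measure of error. Within groups, pairs of libraries differed by a chi-square of 10.2 to 123 per gene, so none was a duplicate.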

Additional observations from a re-analysis of the deposited data

How the results depend on the processing

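The counts of members called against D0 stayed within 1.5 times the main count under every alternative tried in both genotypes, and no alternative called a member between genotypes. The replicate block gave 32, 36, and 36 members on D1, D3, and D7 in WT and 34, 36, and 35 in KO. Leaving out an isolation gave 6 to 14 members from D1 to D3 and 2 to 3 from D3 to D7 in WT, and 5 to 12 and 3 to 4 in KO. Fewer samples were fitted in these cases, and the share of all genes called was not computed. Of 2288 pairs of a result of a single named gene, members and other lipid genes, and an alternative, 2125 kept their direction and side of the threshold, 120 lost the call, 17 gained it, and 26 turned their sign. With total-count scaling the log2 change in WT became 0.0798 for Lpin2 and 0.36 for Dgat2 on D1, 0.37 for Chka on D1, 0.59 for Dgat1 on D3 and 0.27 on D7, and 0.22 for Pcyt1a on D3, and in KO 0.26 for Acsl3 on D1, 0.52 for Dgat1 on D3 and 0.29 on D7, and 0.37 for Pcyt1a on D3. With DESeq2 size factors or the DESeq2 test, Chka on WT D1 was 0.0074 and Dgat1 on WT D3 was 0.0032 or 0.0014, and without the filter Dgat1 was 0.0336. With the replicate block Chka on KO D1 was -0.0212, and the block changed the calls of Acsl3 and Lpin2 on WT D1 and Pcyt1b on WT D7 only, among the changes of members against D0 in WT. With each isolation left out in turn, WT D1 changes ran from -0.33 to 0.52 for Lpin1, from -0.32 to 0.14 for Dgat2, from -0.47 to 0.32 for Chka, and from -0.10 to 0.19 for Pcyt1b, and Dgat1 on WT D3 ran from -0.0489 to 0.0643. In KO they ran on D1 from -0.58 to 0.25 for Acsl3, from -0.36 to 0.82 for Lpin1, and from -0.45 to 0.55 for Chka, and on D3 from -0.11 to 0.13 for Dgat1. The cause of these changes was not tested. Depth limits Mlxipl, Thrsp, Acacb, Elovl6, Pcyt1b, and late Acoxl, which hold few counts in some groups.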
